A study of Mus musculus with 12 samples.

Results

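The genes described here are 9 members of the extracellular proteolysis machinery: the matrix metalloproteinases Mmp8, Mmp9, Mmp12, Mmp13 and Mmp14, the metalloproteinase inhibitors Timp1 and Timp2, urokinase (Plau) and the urokinase receptor (Plaur). They were chosen by name, with earlier results of these data known, out of 16358 genes with a symbol on the array. Their probes are those whose printed RefSeq accession belongs to one of them. All 9 passed the filter on dim probes and are among the 11095 genes tested. The cells were dendritic cells grown in 5 days from the marrow of mouse hind limb bones (femur, tibia). The marrow had first been cleared of B and T lymphocytes, and the medium held 10 ng/ml GM-CSF together with 5 ng/ml IL-4. There were 4 groups of 3 arrays: unstimulated cells, and cells given lipopolysaccharide (LPS, a bacterial cell wall component sensed through Tlr4) at 100 ng/ml for 1, 6 or 24 h. All 4 groups carried the same cytokines, strain and genotype are not given in the labels, and no sort after culture is named. Unstimulated cells were taken only at 0 h, so the effect of LPS and that of a longer culture cannot be told apart. The 3 arrays of a group carry the letters A, B and C. Whether one letter is one animal across groups is not stated.

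Metalloproteinases are zinc enzymes, made as inactive precursors, that cut collagens, elastin, gelatin and many secreted or surface proteins. TIMPs bind their active site and block them. Urokinase, held at the cell surface by its receptor, turns plasminogen into plasmin, which dissolves fibrin and can also activate some metalloproteinase precursors; the serpin Serpinb2 inhibits urokinase. In dendritic cells this system is known for its part in moving through tissue matrix and in shedding surface proteins.

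Each array compared a Cy5-labelled sample with the same Cy3-labelled pool of mouse RNA, and every level below is the log2 ratio of sample to pool for 1 probe. These ratios show how a gene varies between arrays; they do not rank one gene against another. Between 48.1 and 57.6% of probes on an array exceeded background in the Cy5 channel, and the number of arrays limits the precision. Of 12 listed dendritic cell markers, 11 were tested. Their mean level was 3.02 to 3.29 in unstimulated cells, 3.41 to 3.60 at 1 h, 3.59 to 3.95 at 6 h and 3.53 to 3.82 at 24 h. Cd209a was above background on 0 arrays and Flt3 on 7. In unstimulated cells 9 neutrophil markers had a mean level of 2.48 to 2.89 and 8 osteoclast markers 2.43 to 2.54. These levels alone therefore do not identify the cells as dendritic cells. Slide and time were partly tied together. Slide 1 carried the 3 unstimulated arrays with array A of 1 h, slide 2 carried both B arrays of 1 h and 24 h, slide 3 carried array C of 1 h with A and B of 6 h, and slide 4 carried C of 6 h with A and C of 24 h. Unstimulated arrays thus shared a slide only with array A of 1 h. In a fit with slide as a block, the 1 h change against unstimulated cells is therefore the difference within slide 1. The 6 h and 24 h changes against unstimulated cells also hang on that 1 array. The value of this fit is given beside the calls named here that it changed. In bulk RNA, a gene that is lower may come from fewer cells of a type or from less RNA per cell, which cannot be told apart.

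A gene is called when its Benjamini-Hochberg adjusted p over all 11095 genes, from limma's moderated test on 12 arrays, is under 0.05. By a moderated F test over the 4 groups, all 9 members were called, with a highest adjusted p of 0.0096, against 51.7% of all genes. After 1 h of LPS, 6 of the 9 were called higher and 0 lower than in unstimulated cells, where 4.06% of all genes were called higher and 3.39% lower. After 6 h, 4 were higher and 3 lower, against 16.1% and 23.5% of all genes. After 24 h, 4 were higher and 4 lower, against 18% and 21.5% of all genes. These 3 comparisons share the unstimulated arrays. Because the members were chosen with earlier results of these data known, the counts describe them and are no test of the set. The share of all calls that were higher depended on centring: with arrays centred on their median in place of loess it was 79.6% at 1 h against 54.5% with loess, and 67.3% at 6 h against 40.6%. Median centring set the median change of all genes to -0.12 at 1 h, 0.05 at 6 h and -0.11 at 24 h, where loess gave 0.02, -0.04 and 0.02.

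**Figure D1:**
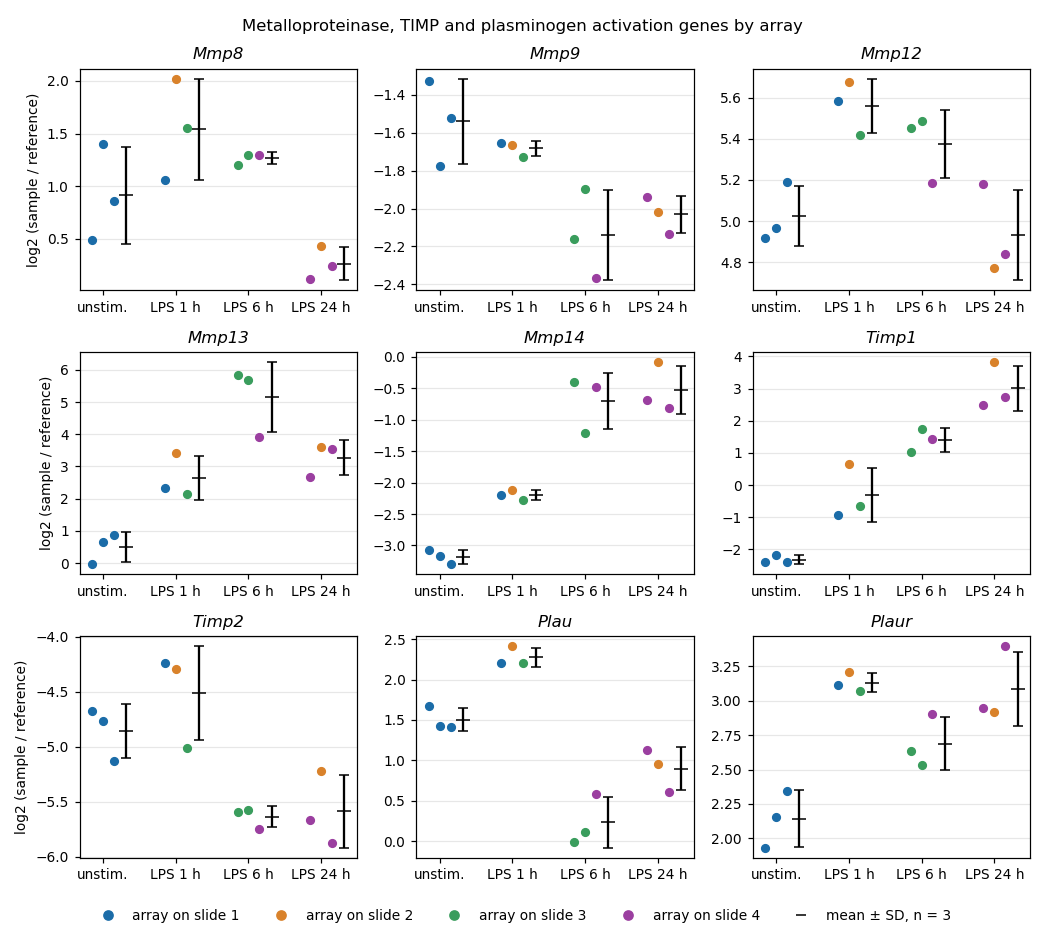
Log2 ratio of sample to reference (vertical axis, a different range in each panel) for the 9 genes on all 12 arrays, by group along the horizontal axis. Points are arrays coloured by slide, and bars are the group mean ± SD (n = 3). Timp1 is higher at each later time, Mmp13 is highest at 6 h and Plau is highest at 1 h and lowest at 6 h.

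The genes with the largest changes in the set were an inhibitor and 2 proteinases. Timp1, Mmp13, Mmp14 and the receptor gene Plaur were the members called higher at 1, 6 and 24 h alike. Their promoters are shown because each was called higher at all 3 times, although their time courses differed. The windows run from 250 bases before to 50 bases after the annotated start, from RefSeq on GRCm38.p6. Capitals mark every match, on either strand, to 6 motifs that were searched: AP-1 (TGANTCA), CRE (TGACGTCA), PEA3 (AGGAAG), STAT (TTCNNNGAA), the TATA box (TATAAA) and a kappaB motif. No 2 matches overlapped.
Mmp13, chr9:7272264-7272563, plus strand: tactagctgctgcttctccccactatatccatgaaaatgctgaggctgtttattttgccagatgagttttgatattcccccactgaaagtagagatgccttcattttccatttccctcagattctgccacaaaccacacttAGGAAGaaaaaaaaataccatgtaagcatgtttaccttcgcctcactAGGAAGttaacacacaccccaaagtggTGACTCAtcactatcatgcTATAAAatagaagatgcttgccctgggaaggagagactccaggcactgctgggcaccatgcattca
Mmp14, chr14:54431348-54431647, plus strand: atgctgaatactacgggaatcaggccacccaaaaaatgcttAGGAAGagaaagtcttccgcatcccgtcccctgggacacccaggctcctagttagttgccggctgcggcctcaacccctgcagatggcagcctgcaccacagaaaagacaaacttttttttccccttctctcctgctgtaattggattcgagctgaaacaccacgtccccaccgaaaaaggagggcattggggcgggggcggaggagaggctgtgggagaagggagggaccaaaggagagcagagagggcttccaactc
Timp1, chrX:20869916-20870215, plus strand: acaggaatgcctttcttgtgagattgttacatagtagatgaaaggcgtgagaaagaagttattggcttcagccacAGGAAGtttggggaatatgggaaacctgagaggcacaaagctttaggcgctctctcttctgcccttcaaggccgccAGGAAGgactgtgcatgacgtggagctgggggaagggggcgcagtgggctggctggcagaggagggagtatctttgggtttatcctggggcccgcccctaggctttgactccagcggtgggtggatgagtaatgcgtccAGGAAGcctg
Plaur, chr7:24462233-24462532, plus strand: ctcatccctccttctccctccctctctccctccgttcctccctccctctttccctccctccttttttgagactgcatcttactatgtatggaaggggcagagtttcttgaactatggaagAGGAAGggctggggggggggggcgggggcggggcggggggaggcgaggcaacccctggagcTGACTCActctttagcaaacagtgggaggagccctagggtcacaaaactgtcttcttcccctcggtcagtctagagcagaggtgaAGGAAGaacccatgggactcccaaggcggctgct

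Mmp13 carried the AP-1 letters TGACTCA at -35 to -29 from the start, 2 PEA3 matches upstream of it and a TATA match at -16 to -11. The Plaur window held the same TGACTCA at -69 to -63 and 2 PEA3 matches. Timp1 held 3 PEA3 matches and Mmp14 held 1. Of 32851 promoter windows of the same length, 7.81% held the AP-1 letters, 35.4% the PEA3 letters and 13.6% the TATA letters, so the PEA3 letters are common. CRE, STAT and kappaB letters were not in these 4 windows. Mmp8, Mmp12 and Timp2 windows were also found, and the second of 2 Mmp12 windows held an AP-1 match at -44 to -38. A match describes the letters only. Mmp9 and Plau had no entry.

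Mmp13, a collagenase of fibrillar collagens, rose at every time and most at 6 h. Its log2 ratios on arrays A, B and C were -0.02, 0.64 and 0.86 in unstimulated cells, 2.34, 3.42 and 2.15 at 1 h, 5.85, 5.69 and 3.91 at 6 h, and 2.66, 3.61 and 3.56 at 24 h. All LPS arrays lay above all unstimulated arrays, and the 3 arrays of 6 h above every other array, although array C of 6 h was well below A and B. The change was 2.14 at 1 h (4.42-fold, SE 0.48, adjusted p = 0.0186), 4.66 at 6 h (25.2-fold, adjusted p = 1.34e-05) and 2.78 at 24 h (6.89-fold, adjusted p = 0.000645). Between LPS times it was higher at 6 h than at 1 h by 2.51 (adjusted p = 0.002) and lower at 24 h than at 6 h by -1.87 (adjusted p = 0.0185). The 24 h and 1 h levels overlapped, with a difference of 0.64 (95% confidence interval -0.40 to 1.69, adjusted p = 0.365). With slide as a block, the rises at 6 h and 24 h were still called (4.68 and 3.095), while those at 1 h (1.85, adjusted p = 0.147) and the 24 h against 6 h difference (-1.59, adjusted p = 0.0781) were not. The 1 h call was also lost without array B of 1 h (1.75, adjusted p = 0.0808) or without unstimulated array A (1.88, 0.0997) or B (2.22, 0.061), and the 24 h against 6 h call without array A of 24 h (-1.57, adjusted p = 0.0642) or A (-1.52, 0.0857) or B (-1.60, 0.0724) of 6 h. Within slide 4, which holds both times, the 24 h minus 6 h difference was -0.80. The background correction on the signals as deposited ended 3 Mmp13 calls. These were 1 h (2.07, adjusted p = 0.105), 6 h against 1 h (1.73, 0.0777) and 24 h against 6 h (-1.02, 0.313).

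Mmp14, a membrane-anchored metalloproteinase that cuts collagen at the cell surface and activates the precursor of Mmp2, rose at 1 h and again at 6 h. The levels were -3.08, -3.17 and -3.29 in unstimulated cells, -2.20, -2.12 and -2.27 at 1 h, -0.41, -1.21 and -0.48 at 6 h, and -0.68, -0.09 and -0.81 at 24 h. Unstimulated, 1 h and the later arrays formed 3 bands that did not overlap, with 6 h and 24 h in the same band. Relative to unstimulated cells Mmp14 was 1.98-fold higher at 1 h (log2 change 0.98, SE 0.22, adjusted p = 0.0161), 5.59-fold at 6 h (2.48, adjusted p = 2.98e-06) and 6.29-fold at 24 h (2.65, adjusted p = 2.8e-06). It was also higher at 6 h than at 1 h by 1.50 (adjusted p = 0.000255). The 24 h and 6 h levels differed by 0.17 (95% confidence interval -0.30 to 0.64). The 1 h call was lost with slide as a block (0.98, adjusted p = 0.139), with median centring, and without array B of 1 h (0.95, adjusted p = 0.0574) or of unstimulated cells (0.99, adjusted p = 0.0613). A second probe for Mmp14, above background on 9 arrays, gave 0.45 at 1 h (adjusted p = 0.115 among all probes), 1.48 at 6 h and 1.45 at 24 h, both called.

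Timp1, a secreted inhibitor of most metalloproteinases, changed more than any other member at 24 h. Its ratios were -2.40, -2.16 and -2.38 in unstimulated cells, -0.93, 0.66 and -0.64 at 1 h, 1.02, 1.75 and 1.42 at 6 h, and 2.50, 3.81 and 2.72 at 24 h. The 4 groups did not overlap, and array B, which was on slide 2 at 1 h and 24 h, was the highest of its group at all LPS times. Timp1 was 4.03-fold higher at 1 h (log2 change 2.01, SE 0.39, adjusted p = 0.00795), 13.1-fold at 6 h (3.71, adjusted p = 1.45e-05) and 40.1-fold at 24 h (5.33, adjusted p = 1.33e-06). Each LPS time was also above the one before it, by 1.70 at 6 h over 1 h (adjusted p = 0.00602) and by 1.62 at 24 h over 6 h (adjusted p = 0.0136). Every Timp1 difference was called with slide as a block, at 1.38, 3.39 and 4.56 against unstimulated cells. The 24 h against 6 h call was lost without array A of 6 h (1.43, adjusted p = 0.0631). Without the 2 arrays of slide 2, an alternative added after seeing these values, the changes were 1.53, 3.71 and 4.93. The other 2 probes of Timp1 gave smaller changes, of 1.14 and 0.79 at 1 h, 2.86 and 2.64 at 6 h and 3.92 and 3.83 at 24 h. Of these, the 0.79 at 1 h was not called (adjusted p = 0.0844 among all probes).

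Timp2, an inhibitor that also takes part in the activation of Mmp2 by Mmp14, did not follow Timp1. Its ratios were -4.67, -4.77 and -5.13 in unstimulated cells, -4.24, -4.29 and -5.01 at 1 h, -5.59, -5.57 and -5.75 at 6 h, and -5.66, -5.22 and -5.87 at 24 h. Arrays of 6 h and 24 h lay below all arrays of unstimulated and 1 h cells, and the 2 earlier groups overlapped. Timp2 was lower at 6 h than at 1 h by -1.12 (SE 0.22, adjusted p = 0.00197) and lower at 24 h than at 1 h by -1.07 (adjusted p = 0.00271), and both differences were called with slide as a block (-0.68 and -0.80). With the background correction on the signals as deposited, the 6 h against 1 h call was lost (-0.71, adjusted p = 0.214). Against unstimulated cells the change was -0.78 at 6 h (1.72-fold lower, adjusted p = 0.0115) and -0.73 at 24 h (1.66-fold lower, adjusted p = 0.0166). These 2 calls rest on arrays of different slides: with slide as a block the values were -0.06 (adjusted p = 0.916) and -0.18 (adjusted p = 0.704). The 24 h call was also lost without array C of 24 h (-0.59, adjusted p = 0.074) or unstimulated array A (-0.64, 0.0673) or B (-0.69, 0.0583), and the 6 h call without unstimulated array A (-0.69, 0.0514). The 1 h change of 0.34 was not called (95% confidence interval -0.12 to 0.81).

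Timp1, Timp2, Mmp13 and Mmp14 are also made by stromal cells, and 7 of 9 fibroblast markers were tested. Their mean level was -4.66 to -4.38 in unstimulated cells, -4.55 to -4.04 at 1 h, -4.51 to -4.21 at 6 h and -4.50 to -4.06 at 24 h, so the groups overlapped. At 6 h 2 of these markers were called higher and 1 lower, against 16.1% and 23.5% of all genes. At 24 h the counts were the same, against 18% and 21.5% of all genes. All 7 tested markers were above background on all 3 arrays of each group, while Lum was on 3 arrays and Pdgfra on 0. The part of stromal cells in the changes of these 4 genes was not tested.

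Mmp12, the elastase of macrophages, had small changes. Its ratios were 4.92, 4.97 and 5.19 in unstimulated cells, 5.58, 5.68 and 5.42 at 1 h, 5.45, 5.49 and 5.19 at 6 h, and 5.18, 4.77 and 4.84 at 24 h. The 1 h arrays were above all unstimulated arrays, by 0.54 on average (1.45-fold, SE 0.14, adjusted p = 0.0393). At 24 h the level was lower than at 1 h by -0.63 (adjusted p = 0.00558) and lower than at 6 h by -0.44 (adjusted p = 0.0467), and it overlapped the unstimulated level (-0.09, 95% confidence interval -0.40 to 0.21). Slide as a block ended all 3 calls at similar sizes: 0.56 at 1 h (adjusted p = 0.259), -0.59 between 24 h and 1 h (0.0652) and -0.41 between 24 h and 6 h (0.241). With the scanner software's processed signals the 1 h change was 0.051 (adjusted p = 0.903) and the 24 h against 1 h difference -0.10 (adjusted p = 0.767). The 24 h against 6 h difference turned to 0.22 with those signals and to 0.39 with the background correction applied to the signals as deposited. The 1 h call was lost without any one of 5 arrays (A or B of 1 h, A of 6 h, or unstimulated A or B, with adjusted p up to 0.164) and the 24 h against 6 h call without any one of 9, all but B of 1 h, C of 6 h and A of 24 h (adjusted p up to 0.15). Of 8 macrophage and monocyte markers tested, the mean level was 0.93 to 1.06 in unstimulated cells, 1.39 to 1.55 at 1 h, 1.11 to 1.23 at 6 h and 0.97 to 1.03 at 24 h. Of the 8, 1 (Cd14) was called higher at 1 h and 0 lower, with a median change of 0.05 against 0.02 over all genes. At 24 h 2 were called higher and 3 lower. All genes were called higher and lower at 4.06% and 3.39% at 1 h, and at 18% and 21.5% at 24 h. The part of macrophages and monocytes in the Mmp12 values was not tested.

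Mmp8 and Mmp9, a collagenase and a gelatinase stored in neutrophil granules, were the members with dim spots. Mmp8 had ratios of 0.49, 1.40 and 0.86 in unstimulated cells, 1.06, 2.02 and 1.55 at 1 h, 1.20, 1.30 and 1.30 at 6 h, and 0.12, 0.43 and 0.24 at 24 h. It was well above background on all arrays of the first 3 groups and on 0 of 3 at 24 h, where the ratios are only an upper limit. The 24 h arrays were below all others. Folds were set against the lowest signal called above background, in the sample channel alone. On group means, Mmp8 at 24 h was then 2.36-fold lower than at 1 h and 1.91-fold lower than at 6 h. These folds do not allow for the spread between arrays and are not lower limits. The measured mean was 0.26 at 24 h, against 1.54 at 1 h (adjusted p = 0.0018) and 1.27 at 6 h (adjusted p = 0.013). The 95% confidence intervals of the measured log2 differences were -1.80 to -0.76 against 1 h and -1.53 to -0.48 against 6 h. With the background correction on the signals as deposited, the 24 h against 6 h call was lost (-0.54, adjusted p = 0.365). Against unstimulated cells Mmp8 was called lower at 24 h (0.26 against 0.91, adjusted p = 0.0468). No size is given there, because the fold set in this way exceeds the fold of the ratios. That call was lost without any one of 9 of the 12 arrays, all but A and B of 1 h and unstimulated A, with the smallest difference without unstimulated array B (-0.41, adjusted p = 0.21). The 1 h change of 0.63 was not called (adjusted p = 0.133), but was with the replicate letter as a block (adjusted p = 0.0324), and within slide 1 it was 0.14.

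Mmp9 was measured on 10 spots of 1 probe, with a spread between spots of 0.05 to 0.16 (SD) on an array. The means over spots were -1.33, -1.78 and -1.52 in unstimulated cells, -1.65, -1.67 and -1.73 at 1 h, -2.16, -1.90 and -2.37 at 6 h, and -1.94, -2.02 and -2.13 at 24 h. All arrays of 6 h and 24 h lay below those of unstimulated and 1 h cells. The change was -0.60 at 6 h (1.52-fold lower, SE 0.14, adjusted p = 0.00501) and -0.49 at 24 h (1.40-fold lower, adjusted p = 0.0161), while the 1 h change of -0.14 was not called (adjusted p = 0.58). At 6 h Mmp9 was also lower than at 1 h, by -0.46 (adjusted p = 0.0308). All 10 spots were above background on 1 of 3 arrays at 6 h and at 24 h. A second probe, above background on 12 arrays, gave -0.43 at 6 h (adjusted p = 0.041) and -0.61 at 24 h (adjusted p = 0.00701), with adjustment over all probes. On that probe the 6 h against 1 h difference was not called (-0.30, adjusted p = 0.174). The 6 h against 1 h call was also lost with the mean over probes (-0.38, adjusted p = 0.0544), median centring (-0.24, 0.44) and the Cy5 channel alone (-0.38, 0.109). With slide as a block none of the 3 Mmp9 differences was called, at -0.52 for 6 h (adjusted p = 0.226), -0.31 for 24 h (0.506) and -0.41 for 6 h against 1 h (0.134), and with the background correction on the signals as deposited the 6 h change was 0.03. The 24 h call was lost without array C of 24 h (-0.44, adjusted p = 0.0579) or unstimulated array A (-0.38, 0.0782), and the 6 h against 1 h call without any one of 5 of the 6 arrays of those times, all but B of 6 h (adjusted p up to 0.111).

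Neutrophil markers moved in these samples too. Of 14 listed, 9 were tested, and their mean level was 2.48 to 2.89 in unstimulated cells, 1.57 to 2.05 at 1 h, 1.09 to 1.67 at 6 h and 1.15 to 1.84 at 24 h. Against unstimulated cells 3 were called lower at 1 h and 6 at both later times, with 1 higher at 6 h and 24 h. Among all genes 3.39%, 23.5% and 21.5% were called lower at the 3 times, and 16.1% and 18% higher at 6 h and 24 h. The median change of the 9 was -0.86 at 1 h, -1.32 at 6 h and -1.30 at 24 h. Elane and Retnlg were above background on 0 arrays and Camp on 2. The part of neutrophils in the Mmp8 and Mmp9 values was not tested.

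**Figure D2:**
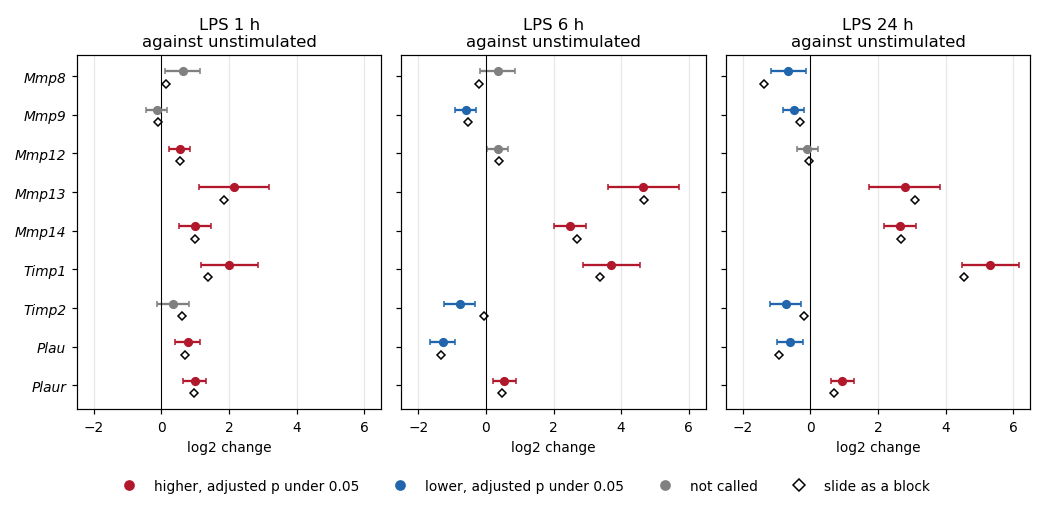
Log2 change of each gene at 1, 6 and 24 h of LPS against unstimulated cells (horizontal axis), with the 95% confidence interval of the fit (n = 3 arrays a group) and, as open diamonds, the change with slide as a block. Timp1, Mmp13 and Mmp14 lie far to the right at 6 h and 24 h under both fits, whereas the diamonds of Timp2 at 6 h and 24 h lie near 0.

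Plau, the plasminogen activator itself, changed direction within hours. Its ratios were 1.67, 1.42 and 1.41 in unstimulated cells, 2.21, 2.41 and 2.21 at 1 h, -0.01, 0.12 and 0.58 at 6 h, and 1.13, 0.95 and 0.61 at 24 h. None of the 4 groups overlapped another. At 1 h Plau exceeded its unstimulated level 1.71-fold (log2 change 0.77, SE 0.17, adjusted p = 0.0175). At 6 h it was lower than at 1 h by -2.05 (4.13-fold, adjusted p = 3.2e-06) and lower than in unstimulated cells by -1.27 (2.42-fold, adjusted p = 0.000105). By 24 h it was above the 6 h level by 0.67 (adjusted p = 0.0185) and below the unstimulated level by -0.61 (1.52-fold, adjusted p = 0.0136). Both 6 h differences were called with slide as a block (-2.03 and -1.33), as was 24 h against 1 h (-1.62); the rise at 1 h (0.71, adjusted p = 0.158), the lower level at 24 h (-0.92, adjusted p = 0.063) and the 24 h against 6 h difference (0.41, adjusted p = 0.24) were not. Leaving out array B of 1 h (0.70, adjusted p = 0.0702) or unstimulated array B (0.73, 0.0771) or C (0.73, 0.0511) ended the 1 h call. Of 13 alternatives other than leaving out single arrays, 7 kept it, with changes of 0.52 to 0.82. Besides slide as a block, it was lost with median centring (adjusted p = 0.368) and background correction on the signals as deposited (0.0926). Processed signals (0.0551), the Cy5 channel alone (0.0772) and leaving out slide 2 (0.0722) ended it too. Leaving out array C of 24 h (-0.46, 0.0638) or unstimulated array A (-0.52, 0.0601) ended the 24 h call, and leaving out array A of 24 h (0.55, 0.0652) or A (0.55, 0.0874) or B (0.61, 0.0663) of 6 h ended the 24 h against 6 h call. The second Plau probe, above background on 8 arrays, moved the same way by less, at 0.27 at 1 h (adjusted p = 0.167), -0.39 at 6 h (adjusted p = 0.018) and -0.21 at 24 h (adjusted p = 0.191).

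Plaur, the surface receptor that holds urokinase, rose at 1 h and remained above the unstimulated level when Plau did not. Its ratios were 1.93, 2.15 and 2.34 in unstimulated cells, 3.12, 3.21 and 3.07 at 1 h, 2.63, 2.53 and 2.90 at 6 h, and 2.95, 2.92 and 3.40 at 24 h. All LPS arrays were above all unstimulated arrays. The change was 0.99 at 1 h (1.98-fold, SE 0.16, adjusted p = 0.00209), 0.55 at 6 h (1.46-fold, adjusted p = 0.0143) and 0.94 at 24 h (1.92-fold, adjusted p = 0.000484). The lower level at 6 h than at 1 h (-0.44, adjusted p = 0.0525) was not called, but was with the replicate letter as a block (adjusted p = 0.0259), with slide as a random block (0.0414) and without array C of 6 h (-0.55, 0.0297) or of 24 h (0.0296). At 24 h and 1 h the levels differed by -0.04 (95% confidence interval -0.38 to 0.30). With slide as a block the 1 h rise was called (0.97, adjusted p = 0.0433), and those at 6 h (0.46, adjusted p = 0.293) and 24 h (0.71, adjusted p = 0.12) were not. Median centring ended all 3 calls against unstimulated cells, and the 6 h call was also lost without unstimulated array A (0.44, adjusted p = 0.0708) or array C of 6 h (0.44, adjusted p = 0.0585). The second Plaur probe gave 1.47, 0.97 and 1.40 at 1, 6 and 24 h, all called.

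**Figure D3:**
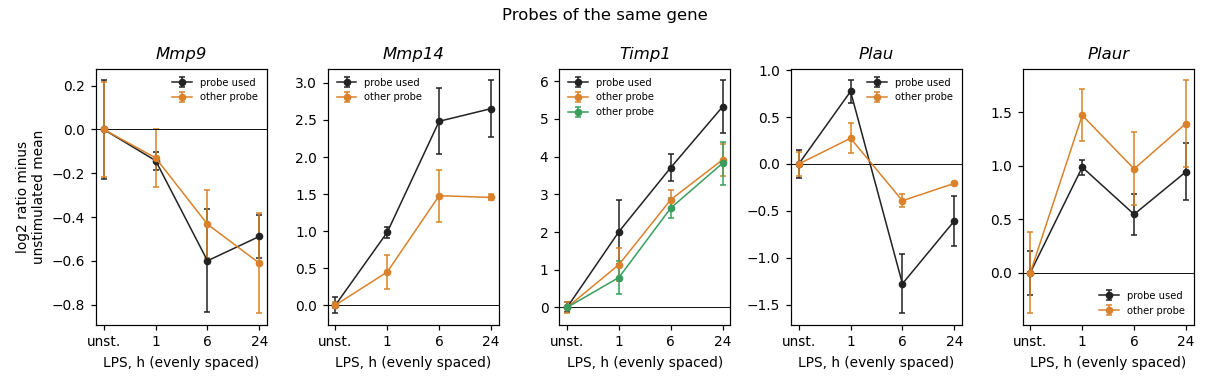
Log2 ratio minus the unstimulated mean (vertical axis) for each probe of the 5 genes with more than 1 probe, by hours of LPS (horizontal axis, evenly spaced), as mean ± SD of 3 arrays. Probes of a gene move the same way against unstimulated cells, with smaller changes for the second probes of Mmp14 and Plau and for both other probes of Timp1.

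Between LPS times, 3 members were called higher and 3 lower at 6 h than at 1 h (all genes 12% and 16.2%), 2 higher and 3 lower at 24 h than at 6 h (all genes 9.64% and 8.76%), and 2 higher and 4 lower at 24 h than at 1 h (all genes 13% and 15.8%). Mmp13, Mmp14 and Timp1 were the 3 higher at 6 h, and Mmp9, Timp2 and Plau the 3 lower. At 24 h against 6 h, Timp1 and Plau were higher and Mmp8, Mmp12 and Mmp13 lower. Here too centring mattered: with median centring 83% of the calls at 6 h against 1 h were higher, against 42.6% with loess, and 10.4% at 24 h against 6 h, against 52.4% with loess. The median change of all genes was then 0.13 and -0.18, against -0.09 and 0.04 with loess.

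The other genes of the plasminogen system were counted from a list of 12, of which 9 were tested. Called higher were 3 at 1 h, 6 at 6 h and 5 at 24 h, and 0 were called lower at any of them. Over all genes 4.06%, 16.1% and 18% were called higher, and 3.39%, 23.5% and 21.5% lower. The median change of the 9 was 0.23, 0.74 and 0.68, against 0.02, -0.04 and 0.02 over all genes. Serpinb2, a urokinase inhibitor, was above background on 0 of 3 unstimulated arrays and was called higher at all 3 times (adjusted p = 0.000645, 0.00133 and 0.0428). Its measured means were 3.45 at 1 h, 2.39 at 6 h and 1.21 at 24 h, against -0.16 in unstimulated cells. Set against the lowest signal called above background, in the sample channel alone, Serpinb2 at 24 h was 2.57-fold higher on group means. That fold is not a lower limit, as the 95% confidence interval of the measured log2 change was 0.30 to 2.43. No size is given for 1 h and 6 h, where the fold set in this way exceeds the fold of the ratios. Plat, the tissue-type plasminogen activator, was higher at 6 h (0.79) and 24 h (0.68), and the plasminogen receptor Plgrkt at 6 h (0.87) and 24 h (1.15). With slide as a block these 4 differences were not called, at 0.81 and 0.71 for Plat (adjusted p = 0.0543 and 0.0968) and 0.64 and 0.85 for Plgrkt (adjusted p = 0.199 and 0.105). Lrp1, which clears urokinase bound to its inhibitor and receptor, was higher by 0.80, 0.74 and 1.16, of which the 1 h value was lost with slide as a block (0.90, adjusted p = 0.0769). Plg itself, which is made mainly in liver, was not tested and was above background on 2 arrays at most.

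The other metalloproteinases were fewer on these arrays. Of 16 listed, 8 were tested, and Mmp3, Mmp15, Mmp16, Mmp20, Mmp21, Mmp24 and Mmp28 were above background on 0 arrays. Called higher were 1 at 1 h, 2 at 6 h and 3 at 24 h, and 1 was called lower at 6 h and 24 h. The shares of all genes called higher were 4.06%, 16.1% and 18%, and those called lower at 6 h and 24 h were 23.5% and 21.5%. Mmp25, a membrane-anchored enzyme first known from leukocytes, was 4.61-fold higher at 6 h (2.20, SE 0.22, adjusted p = 1.03e-05) and 4.36-fold at 24 h (2.12), both called with slide as a block, while its 1 h change was -0.23. Mmp19 was 2.08-fold higher at 1 h (1.06, adjusted p = 0.0496). Mmp10 was higher at 6 h (0.70), Mmp2 and Mmp7 were higher at 24 h (0.45 and 0.43), and Mmp23 was lower at 6 h (-1.02) and 24 h (-1.19). None of these was called with slide as a block, where Mmp19 was 0.99 at 1 h (adjusted p = 0.286), Mmp10 0.65 at 6 h (0.164), Mmp2 0.50 (0.191) and Mmp7 0.28 (0.393) at 24 h, and Mmp23 -0.96 at 6 h (0.189) and -1.06 at 24 h (0.161). Mmp7 was above background on only 1 of 3 unstimulated arrays, against 3 of 3 at 24 h. Timp3, Timp4 and the membrane inhibitor Reck were tested, and 0 of 3 were called in any of the 6 comparisons, so Timp1 was the only TIMP called higher against unstimulated cells.

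Among 9 genes for activators and surface partners of metalloproteinases, 7 were tested. Furin, a protease that cuts the precursor of Mmp14, was higher at 1 h (1.33, adjusted p = 0.00725), 6 h (5.67-fold, 2.50, adjusted p = 1.14e-05) and 24 h (1.41, adjusted p = 0.000832), although with slide as a block the 1 h value was not called (1.35, adjusted p = 0.058). Lcn2, which forms a complex with Mmp9 in human neutrophils, was 3.77-fold higher at 6 h (1.91, adjusted p = 0.00032) and 8.28-fold at 24 h (3.05, adjusted p = 1.29e-05). Lcn2 is also the 1 neutrophil marker that was higher. Ctsg, the neutrophil protease cathepsin G, was lower at all 3 times, by -1.34, -1.60 and -1.53, and was called so with slide as a block. Cd44, a surface protein that can dock Mmp9, was higher at 6 h (0.68) and lower at 24 h (-0.43), and neither was called with slide as a block (0.63 at 6 h, adjusted p = 0.143, and -0.42 at 24 h, adjusted p = 0.342).

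Of 19 ADAM and ADAMTS genes, relatives of the metalloproteinases, 10 were tested. Called higher were 1 at 1 h, 3 at 6 h and 1 at 24 h, and called lower 0, 3 and 3. Of all genes, 4.06%, 16.1% and 18% were called higher at these times, and 3.39%, 23.5% and 21.5% lower. Adam17, the enzyme that releases Tnf from the cell surface, was higher at 1 h (0.61, adjusted p = 0.0476) and 6 h (0.57, adjusted p = 0.0174). Adamts4 was higher at 6 h (0.91), but by 0.20 with slide as a block (adjusted p = 0.613). It was above background on 3 of 3 arrays at 6 h and on 1 of 3 in each other group. Adamts4 therefore passed the filter on dim probes only through the 6 h group, and its level elsewhere is near background. Adam10, a sheddase, and Adam15 were lower at 6 h and 24 h, by -0.43 and -0.35 for Adam10 and by -0.55 and -0.48 for Adam15. With slide as a block the Adam15 differences were called (-0.93 and -1.04). Those of Adam10 (-0.59, adjusted p = 0.123, and -0.50, adjusted p = 0.203) and of Adam17 (0.70 at 1 h, adjusted p = 0.193, and 0.85 at 6 h, adjusted p = 0.0897) were not.

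**Figure D4:**
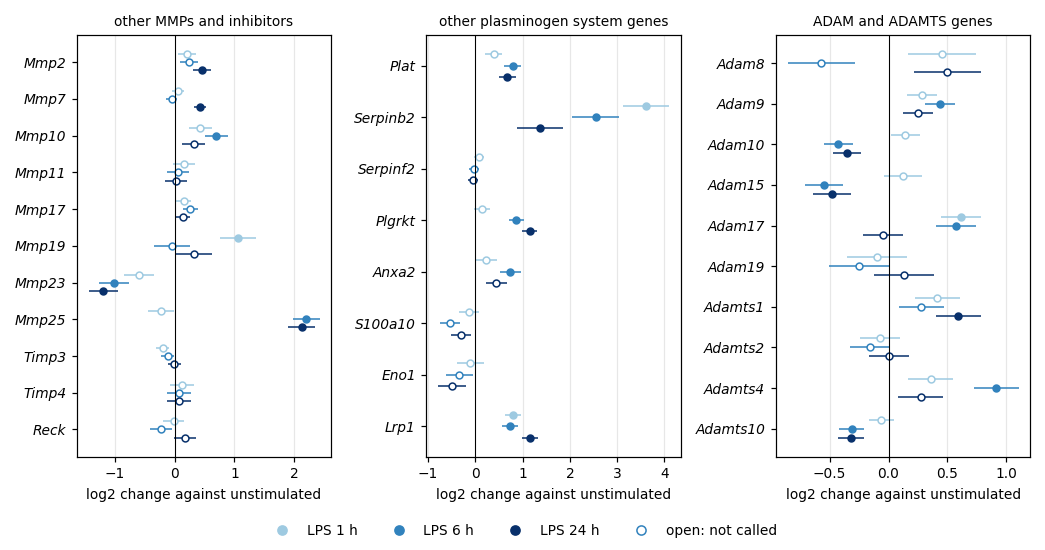
Log2 change at 1, 6 and 24 h of LPS against unstimulated cells (horizontal axis, a different range in each panel) for the tested genes of 3 groups: other metalloproteinases and inhibitors, other plasminogen system genes, and ADAM and ADAMTS genes. Filled points were called, open points were not, and bars are the standard error; genes not reported by name are left out, and Serpinb2 and Mmp25 lie farthest to the right.

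The genes whose ratios followed each member most closely over the 12 arrays were taken by Pearson correlation among the other 11094 genes. The values describe these arrays only, since arrays share groups and slides. Mmp13 was followed by Clic4 (r = 0.981), Ifit1 (0.973) and Tlr6 (0.968), and Timp1 by Procr (0.975), Insl6 (0.972) and Il18bp (0.971). For Mmp14 they were Fam177a (0.972), AI987944 (0.969) and Hdc (0.968), and for Plau Bag5 (0.969), Mia2 (0.962) and Mras (0.955). Plaur was closest to Dnajb4 (0.941), Rusc2 (0.941) and Dusp1 (0.929). The genes that moved less had Trp53bp2, Ddx56 and Wdr34 for Timp2 (0.947 to 0.925), Ssbp3 and Fam118b for Mmp9 (0.955 and 0.935), Stard5 and Macrod1 for Mmp12 (0.932 and 0.918), and Srp54a, Ssr3 and Senp5 for Mmp8 (0.917 to 0.902). No member was among the 3 closest genes of another.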

How the data were processed

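RNA of 12 samples was hybridised in Cy5 against Cy3-labelled Universal mouse reference, 750 ng of labelled cRNA each, per the labels. The deposited scanner files hold median spot and local background intensity per channel from Feature Extraction, per the file headers. The authors' deposited table holds log2 ratios of sample over reference, made with limma per the submitters' processing notes (version and steps not given in the sources used here); it correlated with the values derived here at 0.999 or more on every array. It served as an alternative.

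In R 4.3.3 with limma 3.58.1, intensities were corrected with normexp (offset 50), local backgrounds marked as outliers being replaced by the array median, and log2 ratios were normalised by loess (span 0.3). Control and outlier spots had weight 0, and 0 spots were saturated. Probes well above background on all 3 arrays of a group were kept (21750 of 41174), named through the printed RefSeq accession, and 1 probe per gene, the brightest, was used. lmFit and eBayes were fitted with 1 mean per group (8 residual degrees of freedom). Medians stood in for planned mean signals, which the files lack. The fit was tested on simulated data.

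Same-letter arrays of different groups correlated in their deviations from group means at a median of 0.11 (-0.21 to 0.58, 18 pairs), and different letters at -0.01 (-0.53 to 0.41, 36 pairs); the letters come from the labels' donor tag. Members and lists were chosen with earlier results of these data known. Named are all members, up to 4 called genes per list and comparison with the largest changes, and the 3 genes most like each member; Mmp2, Mmp7, Adam10 and Adam15 follow from the same rule, and markers are given as counts. Genes that this rule picks but that are not reported here are counted and not named. Promoters matched 7 of 9 members. Alternatives changed background correction, centring, filter, probes, slide and replicate blocks, and single arrays.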

Additional observations from a re-analysis of the deposited data

Results flagged for a closer look

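For 4 members the change against unstimulated cells ran one way at an earlier time and the other way at a later time, and the difference between the 2 times was itself called by limma's test. Both changes share the unstimulated arrays, so the direct difference between LPS times is given. Plau was higher than in unstimulated cells at 1 h and lower at 6 h and 24 h, and differed by -2.05 between 6 h and 1 h and by -1.38 between 24 h and 1 h. Timp2 had a positive but uncalled change at 1 h and was lower later, with -1.12 between 6 h and 1 h and -1.07 between 24 h and 1 h. Mmp8 had positive but uncalled changes at 1 h and 6 h and was called lower at 24 h, with -1.004 between 24 h and 6 h and -1.28 between 24 h and 1 h as measured means, although its 24 h arrays were not well above background. Mmp12 was higher at 1 h and uncalled on the negative side at 24 h, with -0.63 at 24 h against 1 h. With slide as a block each of these differences between LPS times was called except that of Mmp12. Of the called changes against unstimulated cells, Plau at 6 h (-1.33) and Mmp8 at 24 h were still called in that fit. The Plau changes at 1 h (0.71) and 24 h (-0.92) were not. Nor were those of Timp2 at 6 h (-0.06) and 24 h (-0.18) and of Mmp12 at 1 h (0.56). The uncalled Mmp8 change at 6 h turned to -0.21.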

How the results depend on the processing

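Of 38 called differences among the members, all 38 were called with the replicate letter as a block, which added 2 calls (Mmp8 at 1 h, adjusted p = 0.0324, and Plaur at 6 h against 1 h, 0.0259). The replicate block moved no count of genes called by over 1.5 times. Of the 38, 37 were called with the authors' deposited log2 ratios, 35 with a normexp offset of 16, 34 each with the scanner software's processed signals and with the Cy5 channel alone, 36 with no filter on dim probes, 37 with the mean over a gene's probes, 33 with slide as a random block, 25 with median centring, 22 with slide as a fixed block and 21 with normexp on the signals as deposited. Why calls were lost was not tested. With 1 array left out, 30 to 36 of the 38 remained called.

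Genes called at 1 h against unstimulated cells numbered 827, against 243 with normexp as deposited, 225 with median centring, 225 with slide as a block and 474 without the arrays of slide 2 (338 to 1046 with 1 array left out, with 338 and 356 without unstimulated A and B, and 528 and 399 without A and B of 1 h). At 6 h they numbered 4397, against 2436, 2018 and 1949 in the first 3 of these settings, and at 24 h 4372, against 2335 with median centring and 1762 with slide as a block. At 6 h against 1 h there were 3128, against 1373 with normexp as deposited and 1450 with median centring (2083 without A of 6 h to 3186 with 1 array left out). At 24 h against 6 h there were 2042, against 790, 927 and 868 with normexp as deposited, median centring and slide as a block (1079 to 2309 with 1 array left out, with 1079 and 1290 without A and B of 6 h and 1270 without C of 24 h), and at 24 h against 1 h 3196, against 1812 and 1112 with normexp as deposited and median centring. By the F test there were 5739, against 3428, 2795 and 3145 with normexp as deposited, median centring and slide as a block.

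Members called at 1 h were 6, against 3 with normexp as deposited, 2 with median centring, 3 with the Cy5 channel alone, 2 with slide as a block and 3 without slide 2 (2 to 6 with 1 array left out, with 2 without array B of 1 h or of unstimulated cells). At 6 h they were 7, against 4 with normexp as deposited and 4 with slide as a block. At 24 h they were 8, against 5, 5 and 4 with normexp as deposited, median centring and slide as a block (4 to 8 with 1 array left out, with 4 without C of 24 h and 5 without unstimulated A). At 6 h against 1 h they were 6, against 3 with normexp as deposited. At 24 h against 6 h they were 5, against 1, 3 and 2 in the same 3 settings (1 to 5 with 1 array left out, with 1 and 2 without A and B of 6 h and 3 without A of 24 h).

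Signs turned mostly where the change was near 0. At 24 h against 6 h, Timp2 (0.05) was -0.38 with normexp as deposited, -0.012 with an offset of 16, -0.30 with median centring, -0.0072 with processed signals, -0.12 with slide as a fixed and -0.0069 as a random block, -0.13 without slide 2 and -0.021 within slides (-0.13 to 0.19 with 1 array left out). Mmp14 (0.17) was -0.14 with median centring, -0.017 with slide as a block, -0.048 without slide 2 and -0.27 within slides (-0.085 to 0.32). Mmp9 (0.11) was -0.51 with normexp as deposited, -0.057 with median centring, -0.18 with probes above background on all arrays and -0.033 with the mean over probes (-0.0016 to 0.23). Mmp12, called at -0.44, was 0.39 with normexp as deposited and 0.22 with processed signals; at 6 h against unstimulated cells (0.35) these gave -0.49 and -0.27, and at 6 h against 1 h (-0.18) it was 0.18 with median centring, 0.23 with Cy5 alone and 0.053 within slides. Mmp9 with normexp as deposited was 0.029 at 6 h against unstimulated cells and 0.11 against 1 h, where it was called at -0.60 and -0.46. Mmp8 at 6 h against unstimulated cells (0.35) was -0.12 with normexp as deposited and -0.21 with slide as a block. Plaur at 24 h against 1 h (-0.04) was 0.081 without slide 2 (-0.20 to 0.043 with 1 array left out). Dim spots limit Mmp8 at 24 h and Mmp9 at 6 h and 24 h.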
